A study of Mus musculus with 2 samples.

Results

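The shallow cells of the bone marrow endothelial library (group EC) are the cells for which the deposited cell table gives fewer than 1000 UMIs, a unique molecular identifier (UMI) being 1 counted RNA molecule. There were 736 of them among the 4536 EC cells, or 16.2% (exact Clopper-Pearson 95% interval 15.2 to 17.3), and among 8786 cells in the whole series. They were chosen by their UMI number alone, so their low depth and the low gene number that goes with it are a description and not a finding. They held 405215 UMIs, 2.87% of the UMIs of all EC cells, with a median of 538 per cell (quartiles 367 and 713, range 235 to 997) and a median of 312 genes per cell. The 3800 deeper EC cells, with 1000 UMIs or more, held 13706309 UMIs with a median of 3401.5 UMIs and 1532 genes per cell. The third pool was the 236178 EC barcodes with 10 or fewer UMIs, called low-count barcodes here, which held 435732 UMIs with a median of 1 UMI each. Whether their UMIs came only from free RNA of the EC suspension was not tested, and each ratio against them holds for these barcodes alone.

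The study profiled niche cells of mouse bone marrow by droplet sequencing of single cells, in 1 library of endothelial cells (EC) and 1 library of LepR-Cre;tdTomato+ cells (LepR_tdT). Both came from C57Bl/6JCrl mice of the genotype LepR-Cre;LSL-tdTomato, aged 3 to 4 months, so the EC cells carry the Cre driver and the reporter too. LepR is the leptin receptor, LepR-Cre drives recombination in cells that express it or whose precursors did, and LSL-tdTomato is a red fluorescent reporter that the recombination switches on. The labels mention tamoxifen by gavage, an intravenous VE-Cadherin antibody, enzymatic digestion, and stains for CD45, Ter119 and LepR, but the sample numbers they attach to these steps overlap and no gate is given, so it is uncertain which of them applied to these cells. Neither the number of mice behind a library nor any pooling of them is given.

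A cell that has lost its outer membrane loses cytoplasmic RNA, while transcripts inside mitochondria and inside the nucleus are held back longer. For that reason mitochondrially encoded transcripts and nuclear-retained long non-coding RNAs such as Malat1, the abundant RNA of nuclear speckles, are commonly read beside depth in droplet data, and a droplet with no cell still captures RNA that floats in the suspension. Bone marrow endothelium is mostly sinusoidal, a fenestrated vessel type that takes up material through the scavenger receptors Stab1 and Stab2, with a smaller arterial part.

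Each group is 1 library, so no test between pools was possible and no p-value is given. UMIs of a gene or gene list were summed over the cells of a pool and expressed as counts per 1000000 UMIs of that pool (CPM). Intervals are exact 95% intervals on the sums and cover counting error only, not variation between mice or preparations. A gene counted as measured when at least 10 UMIs were expected in both pools, and a fold of 2 or more was the only threshold. Pools under 3 UMIs lie at the counting limit, which was 7.40 CPM for the shallow cells, 0.219 for the deeper cells and 6.88 for the low-count barcodes.

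The label was first set beside the markers. At least 1 UMI of the endothelial, sinusoidal or arterial lists was seen in 709 of the 736 shallow cells (96.3%, exact interval 94.7 to 97.6), and at least 3 in 635 of them (86.3%), with a median of 7 such UMIs against 63 in the deeper cells. In the 48 shallow cells that carried erythroid genes, described further on, at least 1 such UMI was seen in 37 (77.1%) and at least 3 in 17 (35.4%), at a median depth of 444.5 UMIs. A single endothelial UMI was therefore also common in cells led by genes of another type, and the presence of 1 UMI does not place a single shallow cell. Summed over the shallow cells, the 16 genes of the endothelial list reached 8995 CPM (8706 to 9292), against 10933 in the deeper cells and 7931 in the low-count barcodes. Barcodes with 11 to 50 UMIs held 10818 CPM of it, and against those the direction turned (log2 ratio -0.27).

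The mitochondrially encoded genes were higher in the shallow cells than in both other pools. The 13 mitochondrial protein-coding genes, which supply subunits of the respiratory chain and of ATP synthase, gave 134837 CPM in the shallow cells, 38640 in the deeper cells and 72935 in the low-count barcodes. The shallow cells were thus 3.49-fold (3.46 to 3.52) above the deeper cells and 1.85-fold (1.82 to 1.87) above the low-count barcodes. On the log2 scale the latter ratio was 0.89, and it was 2.097 against barcodes with 11 to 50 UMIs, which held 31521 CPM. Of the 13 genes, 12 were measured against the deeper cells and 12 of these 12 were at least 2-fold higher in the shallow cells, where 1.84% of the 5004 measured genes were. Their log2 ratios lay close together, from 1.46 for mt-Atp8 to 1.91 for mt-Nd1, beside a median of -0.16 over all measured genes. The most abundant, mt-Atp6, reached 32158 CPM against 8797 in the deeper cells and 17228 in the low-count barcodes, and mt-Nd6, which was not measured, reached 69.1 CPM against 20.7. Against the low-count barcodes 7 of 13 were at least 2-fold higher, where 10.3% of the 5121 genes measured there were, and mt-Atp8 (2.05 on the log2 scale) and mt-Nd4l (1.94) differed most.

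The nuclear-retained list reached 117390 CPM in the shallow cells, 57360 in the deeper cells and 39341 in the low-count barcodes, log2 ratios of 1.03 and 1.58. Of its 15 genes 12 were in the files and 3 were measured against the deeper cells, and 2 of the 3 were at least 2-fold higher, beside 1.84% of all measured genes. In the 327 shallow cells under 500 UMIs the list's ratio to the deeper cells turned to -0.074 and that to the low-count barcodes was 0.47. Nearly all of the sum was Malat1 (mm10 chromosome 19, 5795690 to 5802672, a long intergenic non-coding gene), at 116817 CPM in the shallow cells, 57044 in the deeper cells and 38648 in the low-count barcodes. Kcnq1ot1 (chromosome 7, 143203458 to 143296549), the antisense RNA that silences genes of an imprinted cluster, reached 291 CPM from 118 UMIs against 145 in the deeper cells and 73.4 in the low-count barcodes. Neat1, the scaffold RNA of paraspeckles, was at 227 CPM against 145 in the deeper cells (0.64, interval 0.33 to 0.95) and 225 in the low-count barcodes. Malat1 therefore set the level of the list, and of the long non-coding genes as a class, which gave 127885 CPM in the shallow cells against 67766 in the deeper cells and 47091 in the low-count barcodes.

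Lists of RNAs translated in the cytoplasm were lower in CPM. All genes of a pool share 1 total, so a larger mitochondrial or Malat1 part lowers the CPM of every other gene. The mitochondrial list took 13.5% of UMIs in the shallow and 3.86% in the deeper cells, the nuclear-retained list 11.7% and 5.74%. Ribosomal protein genes gave 118626 CPM in the shallow cells against 177581 in the deeper cells and 215171 in the low-count barcodes, with 84 of 87 genes measured against the deeper cells and 0 of these past 2-fold in either direction, beside 1.84% of all measured genes higher and 4.18% lower. The list ratios against the deeper cells were -0.58 for ribosomal protein genes, -0.43 for cytosolic housekeeping genes, -0.60 for genes of the secretory pathway and -0.55 for nuclear genes of the respiratory chain. The median over all measured genes was -0.16. The part of the shared total in these ratios was not tested. In CPM the respiratory chain was thus split by genome. Its mitochondrially encoded genes were 1.80 higher and its nuclear-encoded genes 0.55 lower on the log2 scale. Of the 23 nuclear genes 1 was past 2-fold, a share near that over all measured genes.

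Against the deeper cells 0 of the 15 measured genes of the endothelial list and 0 of the 8 measured sinusoidal genes were past 2-fold. In lists this short, 0 is near the share over all measured genes, 1.84% higher and 4.18% lower, and says nothing particular about endothelial genes. Cdh5, the VE-cadherin of endothelial junctions, stood at 602 CPM in the shallow cells, 799.1 in the deeper cells and 521 in the low-count barcodes. Kdr, the main VEGF receptor of endothelium, stood at 1014, 1066 and 654 CPM in the same order. Cldn5, a claudin of tight junctions, was at 1547 CPM against 2490 in the deeper cells (-0.69, -0.80 to -0.57), and the transcription factor Erg and the adrenomedullin co-receptor subunit Ramp2 were lower by similar amounts (-0.94 and -0.80). Pecam1, the CD31 of cell contacts, lay on the other side at 442 against 351 CPM (0.33, 0.11 to 0.55).

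Among sinusoidal genes Stab1 stood at 1066 CPM against 615 in the deeper cells (0.79, 0.65 to 0.93) and Stab2 at 1779 against 1462 (0.28), while the Fc receptor Fcgr2b stood at 471 against 821 (-0.80). The sinusoidal list as a whole was 6520 CPM against 6349 in the deeper cells and 3534 in the low-count barcodes. The arterial list, at 689 CPM, was below the deeper cells (938) and further below the low-count barcodes (1997), mainly through Ly6a and Ly6c1, with Gja5, Hey1 and Bmx at 0 UMIs in the shallow cells. Fabp4, the fatty acid carrier that is the most abundant gene of the endothelial lipid list, was at 9479 CPM against 15197 in the deeper cells, and Gpihbp1, which anchors lipoprotein lipase on capillaries, at 454 against 852. Of the adhesion genes, Vcam1 reached 2362 CPM against 1871 and 1147, and Ackr1, the chemokine scavenger of venules, 748 against 1139 and 588.

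**Figure D1:**
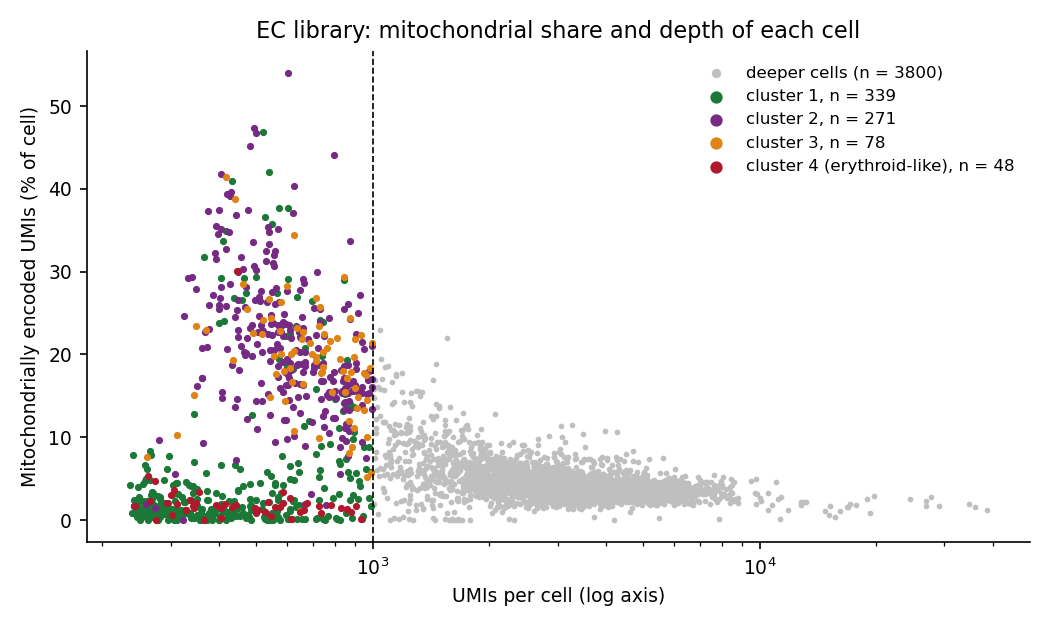
Each point is 1 EC cell, with its UMIs on a log axis and the percent of them that are mitochondrially encoded. Colours mark the 4 clusters of the 736 shallow cells, grey marks the 3800 deeper cells and the dashed line is 1000 UMIs. The shallow cells form a band under 5% and a wide cloud above 10%, with 57 cells from 5% to 10%. The deeper cells have a median of 3.82%.

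The summed values hide a division among the shallow cells. Their median mitochondrial share was 10.2% (quartiles 1.60 and 20.8) against 3.82% (3.12 and 4.82) in the deeper cells, so both quartiles of the shallow cells lay outside those of the deeper cells. The share was under 5% in 309 cells (42.0%), from 5% to 10% in 57 and 10% or more in 370 (50.3%, exact interval 46.6 to 53.9). It was 20% or more in 204 cells and 50% or more in 1. Of the deeper cells 98 (2.58%, 2.099 to 3.13) reached 10% and 2 reached 20%. These limits cut a continuous value and name no cell type. The ranges differ in width, so their cell numbers do not compare directly, and 166 cells lay from 10% to 20%. The cells under 5% and those of 10% or more are called 2 kinds of cell here only for short. Those under 5% were the shallower, with a median of 366 UMIs against 608.5 in the cells of 10% or more.

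The other lists followed the mitochondrial share, also when mitochondrial genes were left out of the total. In CPM of the other UMIs, the nuclear-retained list stood at 24825 (23981 to 25690) in the cells under 5%, at 119249 in those from 5% to 10% and at 217348 (215232 to 219479) in those of 10% or more. Ribosomal protein genes ran the other way, at 217564, 125852 and 81996, and so did cytosolic housekeeping genes, at 57577, 35940 and 21788. Set against the deeper cells in plain CPM, the cells under 5% were lower in mitochondrial genes (-1.34) and in the nuclear-retained list (-1.23) and higher in ribosomal protein (0.27) and housekeeping genes (0.41). The cells of 10% or more had the opposite sign in all 4 lists, at 2.46, 1.58, -1.46 and -1.31. The ratios over all 736 cells are therefore averages of cells on both sides of the deeper cells. The cells under 5% include 46 of the 48 erythroid-like cells described further on, whose ribosomal protein genes were at 344135 CPM. Without the erythroid-like cells the ribosomal protein ratio of all shallow cells went from -0.58 to -0.76. Cluster 1, described further on, holds 254 cells under 5%, 36 from 5% to 10% and 49 of 10% or more. Its ribosomal protein genes stood at 172954 CPM, against 177581 in the deeper cells. The ratio of 0.27 and its sign are therefore shown only for the pool that includes the 46 erythroid-like cells. The ratio without those cells was not computed.

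The deeper cells showed part of the same gradient at higher depth. In CPM of the other UMIs their nuclear-retained list stood at 55749 in the 2958 cells under 5%, 78862 in the 744 cells from 5% to 10% and 142687 in the 96 cells from 10% to 20%, and their ribosomal protein genes at 188629, 164720 and 114014. At a share from 10% to 20%, the 166 shallow cells had 228617 for the nuclear-retained list and 74780 for ribosomal protein genes, further along in the same direction. Across the 736 shallow cells the mitochondrial share and the nuclear-retained share of other UMIs had a Spearman rho of 0.67, and the nuclear-retained and ribosomal protein shares of those UMIs one of -0.82. Points are cells of 1 library, the last pair shares its total, and depth moved with both measures (rho 0.34 between UMIs and the mitochondrial share), so these are descriptions only. The part of depth in them was not tested.

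**Figure D2:**
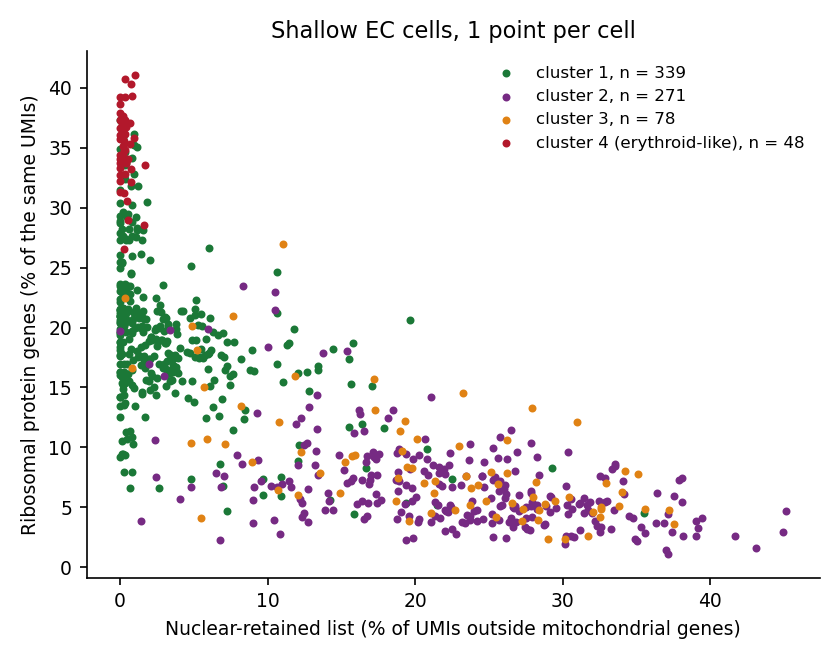
Each point is 1 of the 736 shallow EC cells, placed by its nuclear-retained list and its ribosomal protein genes, both in percent of UMIs outside mitochondrial genes, and coloured by cluster. Cells of clusters 2 and 3 spread to the right at low ribosomal share, cluster 1 lies mostly at the upper left, and the 48 erythroid-like cells sit at the top with almost no nuclear-retained RNA. Malat1 and 13 ribosomal protein genes were among the genes that made the clusters, so their separation on these axes is no result.

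Endothelial genes were present in both kinds of cell, with a different lean. In CPM of the other UMIs the endothelial list was 9855 (9327 to 10406) under 5% and 10517 (10055 to 10994) at 10% or more, intervals that overlap. The pool under 5% includes 46 of the 48 erythroid-like cells described further on, whose endothelial list was at 2816 CPM. List values without those cells were not computed, so the order of the 2 endothelial values is not settled. The same cells are part of every other value under 5% in this paragraph. Their sinusoidal list was at 925 CPM, their arterial list at 168 and their endothelial lipid list at 2396. The sinusoidal list was 3816 under 5% and 10172 at 10% or more, with Stab2 at 622 (82 UMIs) and 3055 (567 UMIs) on the same scale. Kdr stood at 630 (502 to 781) and 1514 (1342 to 1702). Cdh5 stood at 615 (488 to 764) and 738 (620 to 873), intervals that overlap. The arterial list leaned the other way, at 1138 and 506 in CPM of the other UMIs, as did the endothelial lipid list, at 15637 and 9892. In the deeper cells the sinusoidal list also climbed with the mitochondrial share, from 6251 under 5% to 8622 and 10007.

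Single genes were compared between the 2 kinds outside the erythroid-like cells, in 263 cells under 5% and 369 cells of 10% or more, a split made after the values had been seen. Of 1874 genes measured there, 486 (25.9%) were at least 2-fold higher in the cells of high share and 556 (29.7%) at least 2-fold higher in those of low share, in CPM of the other UMIs. The genes higher at high share spanned a median of 71.4 kb of genome from first to last annotated base, those higher at low share 8.17 kb and the remaining 832 genes 19.5 kb. Among the first were Phip (133 UMIs), Nrip1 (62), Herc1 (62), Jmjd1c (56) and the deacetylase gene Hdac7 (54), and Kcnq1ot1 had 108 UMIs at high share and 5 at low share. Hspa1b, an inducible Hsp70 chaperone gene of only 2.80 kb, had 103 UMIs at high share and 0 at low share. Among the second were Psmb2 of the proteasome (50 UMIs at low share, 10 at high share), Eif3h of the translation initiation complex (43 and 12), the respiratory chain genes Ndufb3 (28 and 8) and Ndufab1 (28 and 8), and the mitochondrial enzyme gene Mdh2 (29 and 9). The platelet chemokine Ppbp had 32 UMIs at low share and 3 at high share. Much of the megakaryocyte list, which holds Ppbp, lay in few cells. It fell from 247 CPM in all shallow cells to 84.5 without the 7 in which the blood list gave 5% or more of UMIs.

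**Figure D3:**
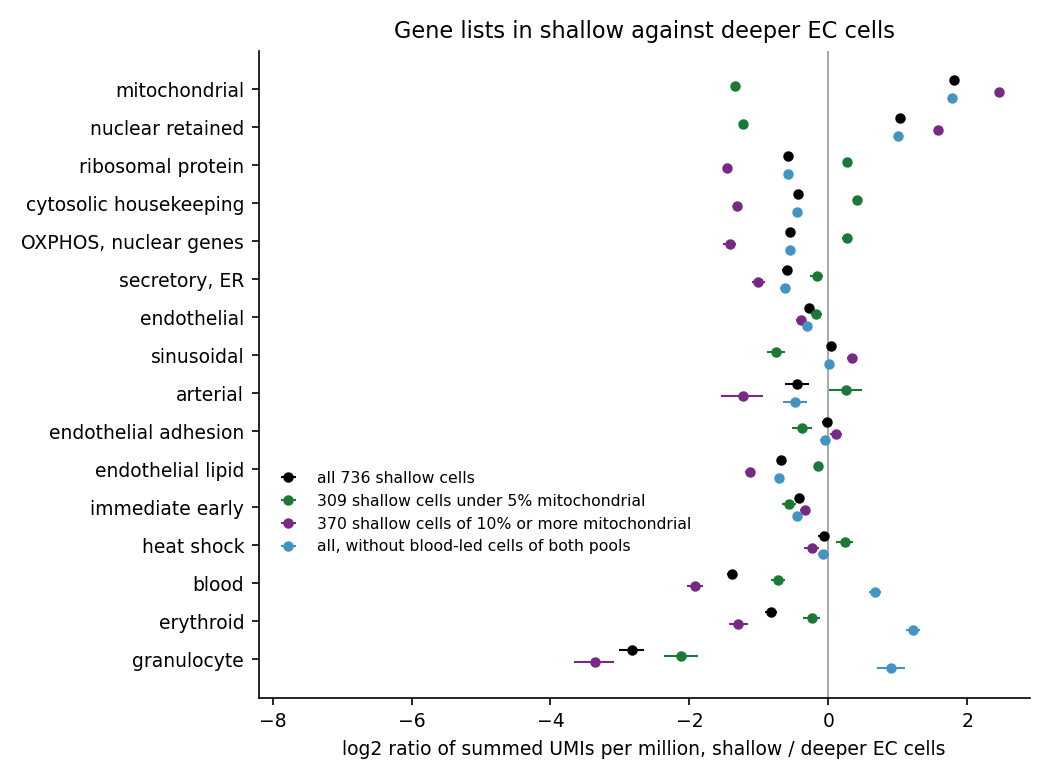
Gene lists in shallow against deeper EC cells, as log2 ratio of CPM with its exact 95% counting interval, for all 736 shallow cells, for those under 5% and those of 10% or more mitochondrial UMIs, and for all of them after cells with 5% or more of blood genes were left out of both pools. Green and purple points fall on opposite sides of 0 for the mitochondrial, nuclear-retained and ribosomal protein lists, and the blue points of the blood lists lie above 0 where the black points lie below it. The green points include 46 erythroid-like cells, which are rich in ribosomal protein genes.

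Clustering of the 736 cells on 1000 variable genes, with mitochondrial genes left out, gave 4 clusters. Their leading genes define them and are no result, and Malat1, Kcnq1ot1, Fabp4 and Car1 were among the genes used, whereas Neat1, Cdh5 and Stab2 were not. The genes used also included 13 ribosomal protein genes. Cluster levels of lists that hold genes used for clustering are descriptions and no separate support for the clusters. Cluster 1 had 339 cells (46.1%), a median of 407 UMIs and a median mitochondrial share of 1.80%, led by Ly6c1, Rarres2 and Cd302. Cluster 2 had 271 cells (36.8%), 595 UMIs and a share of 20.3%, led by Gnaq, Zeb2 and Phc3. Cluster 3 had 78 cells (10.6%), 713 UMIs and a share of 19.6%, led by Rnd1, Nr4a2 and Fosb, and its list of immediate early genes reached 16456 CPM against 5528 in cluster 1. All 4 clusters had a median depth below that of the library (3084.5 UMIs) divided by 3, so a name also needed a marker of the type among the 10 leading genes. Cluster 1 had 5 endothelial markers at 1.5-fold or more above the other shallow cells, and cluster 2 had 4 endothelial, 4 sinusoidal and 4 erythroid ones, but none of these types had a marker among their leading genes. The leading gene Ly6c1 of cluster 1 is on the arterial list, of which only 2 markers passed. Cluster 3 had no type with 3 markers, and clusters 1 to 3 stay unnamed.

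The clusters tracked the mitochondrial share, whose own genes had not been used. Malat1 and 13 ribosomal protein genes had been used. Across the shallow cells their lists, as shares of other UMIs, moved with the mitochondrial share (Spearman rho 0.67 and -0.57). The tracking is therefore no separate support for the clusters or the split. Of cluster 1, 254 cells were under 5% and 49 at 10% or more, of cluster 2, 8 and 249, and of cluster 3, 1 and 71. Neat1, which was not used either, had 14 UMIs in cluster 1, 52 in cluster 2 and 26 in cluster 3, from 158823, 167787 and 54812 UMIs in all. Cluster 4 had 48 cells (6.52%) and is called erythroid-like, since 7 erythroid markers were at least 1.5-fold higher than in the other shallow cells and the carbonic anhydrase gene Car1 led it. Of these cells 46 were under 5% mitochondrial, their nuclear-retained list was at 2900 CPM, their ribosomal protein genes were at 344135 CPM, and their endothelial list was at 2816 CPM against 10723 in cluster 1. The proliferation genes Birc5 and Ube2c were among the genes that led it.

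Of 5004 measured genes, 92 (1.84%) were at least 2-fold higher in the shallow than in the deeper cells, and 209 (4.18%) were at least 2-fold lower. With mitochondrial genes left out of the totals these counts were 149 (3.2%) and 106 (2.27%) of 4661 measured genes. Car1 (chromosome 3, 14766216 to 14808368) differed most, at 338 CPM against 48.4 in the deeper cells and 25.2 in the low-count barcodes, and 128 of its 137 UMIs lay in the erythroid-like cluster. The metallothionein gene Mt1 (101.2 against 35.3 CPM) had 31 of its 41 UMIs there. The cytochrome P450 gene Cyp2e1 (101.2 against 31.4 CPM, 6.88 in the low-count barcodes) had 31 of its 41 UMIs in cluster 2. Phip, Zc3h7a, Tmcc1, Ogt (the enzyme that attaches O-GlcNAc to proteins) and the osmotic stress factor Nfat5 were higher by 1.47, 1.31, 1.27, 1.22 and 1.29 on the log2 scale, and most of their UMIs lay in cells of 10% or more mitochondrial UMIs. Phip stood at 565 CPM (133 UMIs) in those cells and at 52.3 CPM (7 UMIs) in the cells under 5%, on both sides of the 140 CPM of the deeper cells. Phxr4, Trmt1l and Gtf3c2 stood at 126, 106 and 121 CPM against 50.3, 42.8 and 49.5. The platelet gene Pf4 reached 118 CPM against 52.4, from 48 UMIs in 9 cells of which 1 cell held 20.

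The 5 genes that were lower by the most were granulocyte and myeloid genes. Ngp stood at 19.7 CPM in the shallow cells and 394 in the deeper cells (-4.32, -5.53 to -3.34), Camp at 54.3 and 541, S100a8 at 183 and 1707, Lyz2 at 24.7 and 230, and S100a9 at 160 and 1158. The granulocyte list stood at 627 CPM in the shallow and 4446 in the deeper cells, with 9 of 11 measured genes at least 2-fold lower beside 4.18% of all measured genes, and the whole blood list at 3825 and 9997 CPM (log2 ratio -1.39, -1.46 to -1.31), with 16 of 25 measured genes lower and 2 higher, beside 4.18% and 1.84%. The haemoglobin genes were lower too, Hbb-bs at 696 against 1518 CPM and Hba-a1 at 486 against 1157. The other low genes were Elane (46.9 against 139 CPM), Crip1 (37.0 against 106), the mineralisation inhibitor Mgp (44.4 against 124), Ctsh (39.5 against 101.05), Selm (111 against 270), Ybx3 (56.8 against 135) and the cargo receptor Lman1 (54.3 against 129).

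The difference in blood genes rested on few deeper cells. In 33 of the 3800 deeper cells, with a median of 7859 UMIs, the blood list gave 5% or more of the UMIs, as it did in 7 shallow cells. A group of 10 deeper cells held 93.7% of the granulocyte UMIs of the deeper pool, and 15 deeper cells held 84.1% of its haemoglobin UMIs. With equal weight per cell the log2 ratio of the blood list was -0.058. Without the blood-led cells of both pools the sign turned, with the blood list at 2985 CPM in the shallow and 1871 in the deeper cells (log2 ratio 0.67, 0.59 to 0.76), the erythroid list 1.22 higher and the granulocyte list 0.91 higher in the shallow cells. Other lists of blood cells stayed lower in the shallow cells, the monocyte and macrophage list at -2.55 (-3.76 to -1.57), the B lineage list at -1.74 (-3.37 to -0.51) and the pan-leukocyte list at -0.79 (-1.06 to -0.53). Of the single genes S100a8 turned to 1.30, Camp to 1.64 and S100a9 to 1.44, Ngp to 0.58 with an interval that spans 0, and Lyz2 stayed lower at -2.41. Mitochondrial and nuclear-retained ratios hardly moved, to 1.78 and 1.01. In the remaining shallow cells these UMIs were thinly spread, the 74 S100a8 UMIs of all shallow cells lying in 66 cells with at most 5 in 1 cell. The same genes were high in the low-count barcodes, S100a8 at 3403 CPM and Hbb-bs at 2185 CPM, and the part of RNA from outside the cell in the blood UMIs of the shallow cells was not tested.

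Against the low-count barcodes 526 of 5121 measured genes (10.3%) were at least 2-fold higher in the shallow cells and 400 (7.81%) at least 2-fold lower. The low-count barcodes held 435732 UMIs against 13706309 in the deeper cells. Counting error is therefore larger in this contrast, and the counts past 2-fold cannot be set directly beside those against the deeper cells. Over 2896 genes of 50 CPM or more on average, the log profile of the shallow cells had a Pearson r of 0.93 with the deeper cells and 0.83 with the low-count barcodes, while the deeper cells and the low-count barcodes had 0.88 with each other. Genes are not independent, the shallow profile mixes both kinds of cell, and counting error lowers r most between the 2 small pools, so this is a description. Higher in the shallow cells by the most were Cyp2e1 (3.88) and Car1 (3.74), then Palld, Phc3, Cped1, Zswim6, Hoxb4 and Kcnq1ot1 (1.99).

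Lower in the shallow cells by the most were genes far higher in the low-count barcodes than in either pool of EC cells. Retnlg, a neutrophil gene, had 3 UMIs in the shallow cells (7.40 CPM) and 526 CPM in the low-count barcodes, a log2 ratio of -6.15 (-8.44 to -4.58). Cd74, the invariant chain of antigen-presenting cells, was at 37.0 CPM against 2554, and at 15.7 in the deeper cells. Fabp1 and Rbp2, lipid and retinol carriers of the intestine, had 0 UMIs in the shallow cells, 1 each in the deeper cells, and 441 and 379 CPM in the low-count barcodes, at least 59.5-fold and 51.1-fold above the counting limit of the shallow pool. S100a6, Il1b, Cd52 and Ifi27l2a completed the list. Of these, S100a6 and Cd52 reached 52.3 and 31.1 CPM in the deeper cells, against 1425 and 413 in the low-count barcodes. Xist, the RNA of the inactive X chromosome, had 7 UMIs in the shallow cells (17.3 CPM), 0.730 CPM in the deeper cells and 376 CPM in the low-count barcodes. The low-count barcodes of the LepR_tdT library held the same genes at similar levels, Cd74 at 2640 CPM, Fabp1 at 466 and Rbp2 at 363, so the low-count barcodes held RNA that was scarce or unseen in the shallow and the deeper EC cells. The source of this RNA was not tested. In EC barcodes with 11 to 50 UMIs Fabp1 was at 59.1 CPM and Cd74 at 1679.

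**Figure D4:**
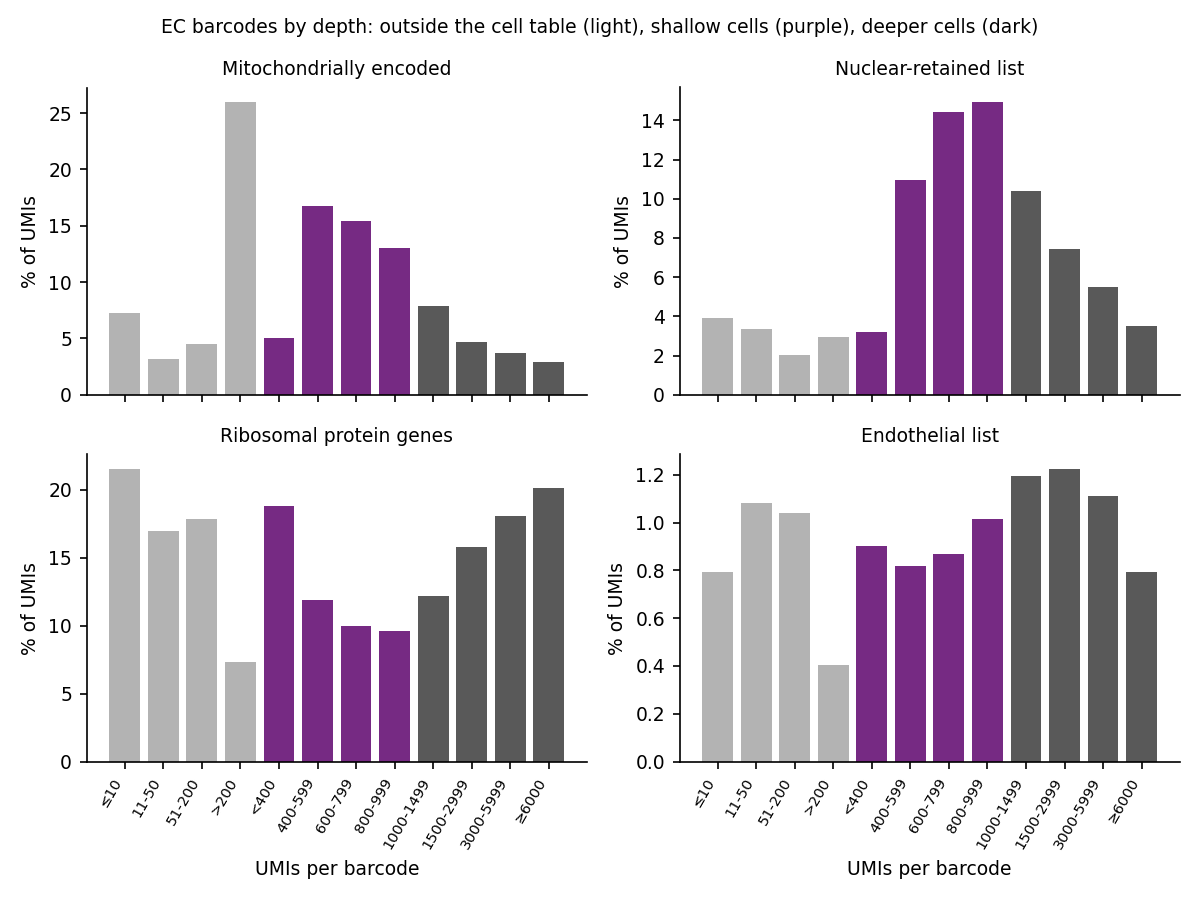
EC barcodes binned by UMIs, with the percent of summed UMIs that are mitochondrially encoded, nuclear-retained, ribosomal protein or endothelial list genes. Light bars are barcodes outside the cell table, purple bars the shallow cells and dark bars the deeper cells. The bin under 400 UMIs differs from the other shallow bins in the first 3 panels, and the nuclear-retained list is highest from 800 to below 1000 UMIs.

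Depth alone did not order the shallow cells. The mitochondrial list gave 50430 CPM in the 211 cells under 400 UMIs, 167888 from 400 to below 600, 154146 from 600 to below 800 and 129893 from 800 to below 1000, and then 78942 from 1000 to below 1500 and 29325 at 6000 or more. The nuclear-retained list ran from 32222 CPM under 400 to 149320 from 800 to below 1000 and back to 35109 at 6000 or more. The limit of 1000 UMIs marked no step. The 47 cells from 900 to below 1000 UMIs had 126120 CPM of mitochondrial, 154027 of nuclear-retained and 10168 of endothelial genes, and the 40 cells from 1000 to below 1100 had 104439, 161917 and 11562.

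The low mitochondrial shares at the lowest depth coincided with the gene limit of the cell table. All 4536 EC cells had at least 201 genes, and no EC barcode outside the table had more than 200. From 235 to below 300 UMIs, 100 barcodes were in the table with a median mitochondrial share of 1.51% and 0 of them at 10% or more, while 141 were outside it with a median share of 51.01% and 112 of them at 10% or more. From 300 to below 400 UMIs 24 of 111 barcodes inside and 108 of 119 outside were at 10% or more. Over the whole range from 235 to below 1000 UMIs the 300 barcodes outside the table included 240 at 10% or more and 32 in which haemoglobin genes gave 10% or more. The numbers of low and high mitochondrial cells among the shallow cells therefore hold for the table as filtered and not for all barcodes of that depth.

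At equal depth the shallow cells of 400 UMIs or more held fewer genes than the deeper cells. Thinned to 400 UMIs, 525 shallow cells had a median of 244 genes (quartiles 220 and 291) and the 3800 deeper cells 299 (290 and 306), with 211 shallow cells left out as too shallow and unthinned medians of 312 and 1532. With mitochondrial genes removed before thinning, 423 shallow cells had a median of 285 and the deeper cells 302.

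**Figure D5:**
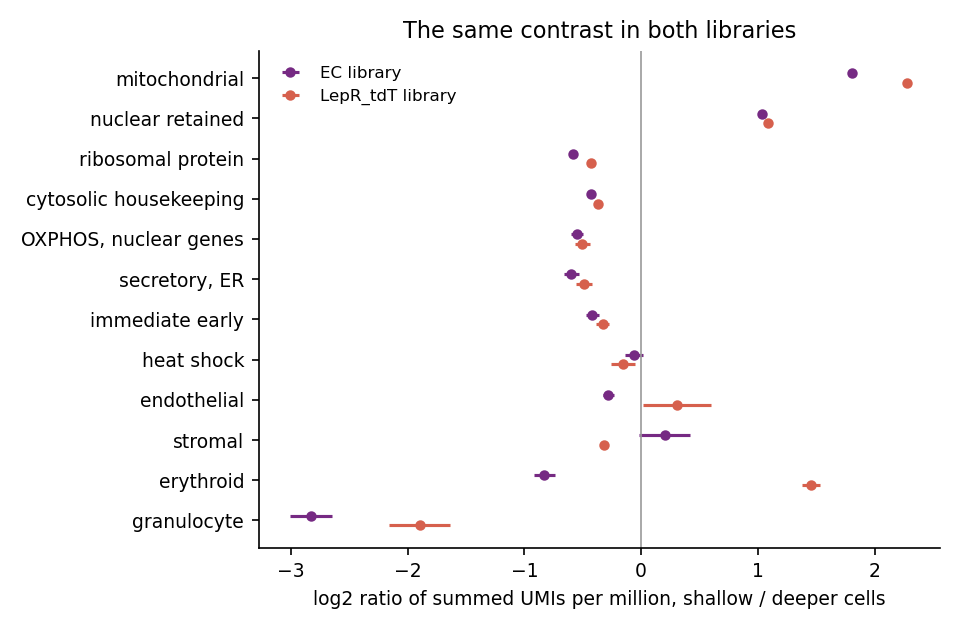
The same contrast, cells under 1000 UMIs against deeper cells, in the EC and the LepR_tdT library, as log2 ratio of CPM with its exact 95% counting interval for each gene list. The mitochondrial and nuclear-retained lists lie above 1 and the ribosomal protein list below 0 in both libraries, and the erythroid list lies on opposite sides of 0.

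The LepR_tdT library, with 578 of its 4250 cells under 1000 UMIs (13.6%), gave a similar picture for the lists that do not mark a cell type. Its shallow cells had 119121 CPM of mitochondrial genes against 24598 in its deeper cells, and 87799 against 41301 CPM of the nuclear-retained list. They fell into 298 cells under 5% mitochondrial, 34 from 5% to 10% and 246 of 10% or more, with the nuclear-retained list at 16130, 175113 and 180680 in CPM of the other UMIs and ribosomal protein genes at 110024, 42041 and 39285. The difference between libraries was not tested, since each is 1 sample. Among EC cells 42 had a barcode that was also a LepR_tdT cell, 18 of them shallow, and in 4 of these the LepR_tdT partner had 1000 UMIs or more. Barcodes were called cells at a like gene limit in both libraries, and no doublet caller was run.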

How the data were processed

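The deposited matrix holds UMI counts per gene and barcode, not normalized, for 27999 genes, and the deposited cell table gives each cell's library, UMI number and gene number. UMI and gene numbers recomputed from the counts equalled the table for all 4536 EC and 4250 LepR_tdT cells. The submitters' processing notes name mm10 as the build and Seurat 2.3.4 and Cell Ranger 2.1.1 as tools, without their roles, and the cell filter of the authors is not given in the sources used here. Library totals were 18152304 UMIs (EC) and 21983361 (LepR_tdT), of which cells held 77.7% and 82.5%.

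Cells were grouped by library and by the 1000 UMI limit, and UMIs were summed per pool. The 95% intervals are exact Poisson for sums, Clopper-Pearson for shares of cells and conditional binomial for ratios. List and gene counts use genes with at least 10 expected UMIs in both pools. The 25 gene lists, the members and the contrasts were chosen with earlier results of these data known. Of the genes past 2-fold with 100 CPM or more in either pool, the 12 that differed most in each direction were named against the deeper cells and 8 in each direction against the low-count barcodes, leaving out mitochondrial, ribosomal protein, haemoglobin and predicted genes, and list genes were named as examples. The listed genes Firre, Rian, Snhg14, Ahsp, Ighm, Igkc and Trbc2 were not matched by symbol. Gene positions and spans are from GENCODE M21 (GRCm38, the build of mm10), which held 27722 of the gene IDs. Strand use in counting is not given, so reads of overlapping antisense genes cannot be told apart, and the near-identical Hba-a1 and Hba-a2, Hbb-bs and Hbb-bt, and Hspa1a and Hspa1b may share reads.

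The shallow cells were clustered with scanpy 1.11.5 on log values scaled to 10000 UMIs, using the 1000 most variable of 5250 genes seen in at least 10 of them (mitochondrial genes left out), 20 principal components, 15 neighbours and Leiden clustering with leidenalg 0.10.2 at resolution 0.5, the best of 10 seeds by modularity. A name needed 3 markers at 1.5-fold with at least 10 UMIs and, at this depth, 1 marker among the 10 leading genes. Profile likeness used log2(CPM + 10). The summing and ratio code was tested on simulated data. Alternatives were TMM factors (edgeR 4.0.16, R 4.3.3), another count filter or none, totals without mitochondrial genes, equal weight per cell, another depth limit, other low-count barcodes, and the removal of shared barcodes, haemoglobin-rich cells, blood-led cells, 1 kind of cell or the erythroid-like cluster. Other computation used Python 3.11.15, numpy 2.4.6, pandas 2.3.3 and scipy 1.17.1.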

Additional observations from a re-analysis of the deposited data

Results flagged for a closer look

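For some gene lists and genes the ratio of shallow to deeper cells had opposite signs in the EC and LepR_tdT libraries, with both counting intervals away from 0. These are 1 library each, and the difference itself was not tested. On the log2 scale the blood list was -1.39 in EC and 0.50 in LepR_tdT, and the erythroid list -0.83 and 1.46. In EC both turn positive without the blood-led cells, to 0.67 and 1.22. The endothelial list was -0.28 in EC and 0.31 in LepR_tdT, the endothelial lipid list -0.68 and 0.37, and the pericyte and smooth muscle list -0.47 and 0.42. The osteolineage list was 3.12 in EC, where it held 49.4 CPM in the shallow and 5.69 in the deeper cells from 20 and 78 UMIs, with 6 of its 10 genes at 0 in the shallow cells and 0 of 10 measured by the filter on expected UMIs, and -0.68 in LepR_tdT, where it held 10431 and 16696. Mt1 was 1.52 in EC, with 31 of its 41 UMIs in the erythroid-like cluster, and -0.25 in LepR_tdT. Pf4 was 1.18 in EC, from 9 cells, and -0.44 in LepR_tdT.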

How the results depend on the processing

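No paired analysis was possible because each group is 1 library, numbered 1 in accession order, and for the same reason no replicate could be left out. Of the alternatives, those that remove blood-led cells, 1 kind of cell or the erythroid-like cluster were chosen after seeing the data. All values are log2 ratios unless said otherwise, "moved" means outside the counting interval, and 21 of the recomputed values stayed within it or, for gene counts, within 1.5 times.

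Against the deeper cells, shallow cells under 500 UMIs (327 cells) gave 1.42 for the mitochondrial list, -0.074 for the nuclear-retained list (sign reversed) and -0.99 for the blood list. Cells under 5% mitochondrial gave -1.34 and -1.23 (both reversed), -0.17 for the endothelial and -0.72 for the blood list, and cells of 10% or more gave 2.46, 1.58, -0.40 and -1.91. Without the erythroid-like cluster the 4 lists were 1.88, 1.12, -0.22 and -1.72. Without blood-led cells mitochondrial and nuclear-retained lists were 1.78 and 1.01 and the blood list reversed to 0.67. Without shared barcodes they were 1.82, 1.05 and -1.47, and without haemoglobin-rich cells the blood list was -1.004. Equal weight per cell gave 1.53, 0.63, -0.37 and -0.058, and TMM factors 1.75, 0.98 and -0.33 for the first 3. Outside mitochondrial genes the nuclear-retained, endothelial and blood lists were 1.19, -0.13 and -1.23.

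Against the low-count barcodes, shallow cells under 500 UMIs gave 0.50, 0.47 and -1.76 for the mitochondrial, nuclear-retained and blood lists. Equal weight gave 0.76, 1.34 and -1.96, TMM factors 0.81, 1.502 and, for the endothelial list, 0.11. Outside mitochondrial genes the nuclear-retained, endothelial and blood lists were 1.68, 0.28 and -2.06. Barcodes with 11 to 50 UMIs as the low-count pool gave 2.097, 1.82 and a reversed endothelial list of -0.27. The blood list was -2.24 without shared barcodes and -2.36 without haemoglobin-rich cells.

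The 92 genes at least 2-fold higher and 209 lower were 1.84% and 4.18% of 5004 measured genes. With no filter they became 808 and 370 (5.73% and 2.62% of 14111). At 50 expected UMIs they were 18 and 26 (1.48% and 2.14% of 1217). Outside mitochondrial genes they were 149 and 106 (3.2% and 2.27% of 4661). In cells under 500 UMIs they were 19 and 91 (1.07% and 5.12% of 1779). TMM factors gave 70 and 255 (1.36% and 4.96% of 5143). The gene deficit at 400 UMIs, -55 genes, was -35 at 300 UMIs and -17 without mitochondrial genes, and the median mitochondrial share was 2.26% in cells under 500 UMIs. The cause of these changes was not tested. Depth limits single genes, since the shallow cells held 405215 UMIs and 3 UMIs correspond to 7.40 CPM.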
